A study of Mus musculus with 16 samples.

Results

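The retinoid genes described here are 9 named genes: Crabp1, Crabp2, Rara, Rarb, Rxrg, Aldh1a1, Aldh1a2, Aldh1a3 and Cyp26b1. They were taken by symbol from a table of 26466 genes measured in 16 libraries of transplanted mouse glioblastomas, and all 9 were found. The set was chosen because the level of Crabp1 was very high in 1 of the 2 kinds of tumour, so every difference between the tumour kinds in these 9 genes is given as a description without a test. RNA sequencing had given 3 Type 1 TAM depleted, 5 Type 1 Control, 4 Type 2 TAM depleted and 4 Type 2 Control libraries. TAM stands for tumour-associated macrophage, and the series compares tumours with and without depletion of these cells in lineage-based mouse models of glioblastoma. The labels give all groups as transplanted. No source used here gives the lineage each kind was made from, the strain, age and sex of the hosts or the way the macrophages were depleted. No label links libraries to animals, and the p-values rest on the spread among these libraries alone, which may be technical.

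Retinoic acid is made from vitamin A. Retinol is oxidised to retinal, and the aldehyde dehydrogenases Aldh1a1, Aldh1a2 and Aldh1a3 oxidise retinal to retinoic acid in a step that is not reversed. Inside the cell retinoic acid is carried by the binding proteins Crabp1 and Crabp2, of which Crabp2 is known for delivery to the nuclear receptors and Crabp1 for holding the ligand in the cytoplasm. The receptors Rara and Rarb bind DNA in pairs with a retinoid X receptor such as Rxrg, and Cyp26b1 is a cytochrome P450 that hydroxylates retinoic acid and so clears it. Rarb is itself a classical retinoic acid target, with a response element in its promoter.

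Reads recovered from the deposited values numbered 4.21 to 18.3 M (mega) per library. Reads of 974 olfactory and vomeronasal receptor genes, which are expressed in nasal sensory neurons, parted the libraries into sets with 2666 to 8480 and 94.98 to 779 such reads per M reads. The 9 libraries of the high-background set were all 5 Type 1 Control, Type 2 TAM depleted 3 and 4, and Type 2 Control 1 and 3. The 7 libraries of the low-background set were all 3 Type 1 TAM depleted, Type 2 TAM depleted 1 and 2, and Type 2 Control 2 and 4. In Type 1 the background set and the treatment therefore coincide and cannot be told apart. Summed levels of 15 macrophage and microglia markers were 1671 to 3456 normalized counts in Type 1 TAM depleted and 1913 to 3692 in Type 1 Control libraries. There 0 of 15 passed the test by limma-trend, where 0 of 26463 genes passed, and 13 of the 15 had negative fold changes. The sums were 1837 to 3955 in Type 2 TAM depleted and 3841 to 10109.7 in Type 2 Control libraries. There 4 of 15 were lower, where 1.24% of all genes were. None of the 15 was at 0 in any library.

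The promoter windows of Crabp1, the gene of the 9 that sets the kinds apart most, and of Rarb, the member in which a direct repeat was found, are shown first. Both come from RefSeq (GRCm38.p6) and run from 250 bases before to 50 bases after the start of transcription, 5′ to 3′. The capitals in the Rarb window mark a DR5 element, a direct repeat of the receptor-binding hexamer with 5 bases between its copies. The search used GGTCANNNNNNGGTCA, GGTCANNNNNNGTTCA, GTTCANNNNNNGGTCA and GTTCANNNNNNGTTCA on both strands.
Crabp1 (chr9:54764498-54764797, plus strand): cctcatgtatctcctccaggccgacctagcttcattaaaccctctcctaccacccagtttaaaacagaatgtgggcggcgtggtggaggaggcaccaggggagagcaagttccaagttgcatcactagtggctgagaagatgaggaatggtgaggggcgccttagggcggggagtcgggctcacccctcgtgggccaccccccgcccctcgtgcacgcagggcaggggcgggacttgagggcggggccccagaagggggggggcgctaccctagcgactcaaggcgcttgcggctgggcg
Rarb (chr14:16575427-16575726, minus strand): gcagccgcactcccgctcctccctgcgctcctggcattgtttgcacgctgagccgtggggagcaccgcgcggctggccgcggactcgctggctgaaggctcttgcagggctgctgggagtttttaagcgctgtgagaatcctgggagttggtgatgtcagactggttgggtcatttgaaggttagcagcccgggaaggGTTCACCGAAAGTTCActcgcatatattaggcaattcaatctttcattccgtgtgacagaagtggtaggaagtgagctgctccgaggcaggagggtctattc
The match GTTCACCGAAAGTTCA begins at base -52 of the Rarb window, on the strand of the gene, at chr14:16575513-16575528. A DR5 element was found in 81 of 32851 promoter windows (0.247%). Windows were found for 7 of the 9 genes, 12 in all, and the Rarb window was the 1 that held a DR5 element. The same patterns with NN or NNN between the copies (DR1 and DR2) were in 0 of the 12 windows, and in 0.402% and 0.399% of all windows. The single hexamer AGGTCA or AGTTCA, which overlaps the DR5 letters, lay in 4 of the 12 windows and in 27.7% of all windows. The Crabp1 and Rarb windows each held 17 CpG dinucleotides, against a median of 7 over all windows, and 68.6% of all windows held fewer. The GC content of the Crabp1 window was 65.0%, against a median of 52.7%. Such letter matches describe the window and do not show that a receptor was bound.

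Crabp1 (ENSMUSG00000032291, chr9:54764748-54773110 in GRCm38, plus strand, protein-coding, 802 exon bases) was the most abundant of the 9 genes per length in both Type 1 groups. Its normalized counts were 4757, 1013 and 975 in the Type 1 TAM depleted libraries and 1208, 1285, 127, 829 and 4197 in the Type 1 Control libraries 1 to 5. They were 6.26, 2.39, 28.0 and 39.3 in the Type 2 TAM depleted libraries and 17.9, 6.68, 19.6 and 7.37 in the Type 2 Control libraries. Every Type 1 library was above every Type 2 library, and the lowest Type 1 value was 3.24 times the highest Type 2 value. The TAM depleted and Control libraries of each kind overlapped.

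On the log2(normalized count + 1) scale the mean of the 8 Type 1 libraries was 6.50 above that of the 8 Type 2 libraries, a ratio of 90.6. It was 129-fold between the TAM depleted groups and 74.0-fold between the Control groups. Within the high-background libraries alone the ratio was 35.8, and within the low-background libraries alone it was 266, without overlap in either. Type 1 levels were spread widely, with the highest library 37.3 times the lowest. Type 1 Control 3 was the lowest, at 102 recovered reads, and Type 1 TAM depleted 1 was the highest, at 8471.

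Per kilobase of exon, the Crabp1 level lay at or above that of 99.4% to 99.9% of 25514 genes in the Type 1 TAM depleted libraries and of 96.4% to 99.9% in the Type 1 Control libraries. In Type 2 it lay at or above 25.1% to 76.6% of genes in TAM depleted and 33.5% to 54.0% in Control libraries. A further scale is the mean level per kilobase of the nasal receptor genes in the same library. Crabp1 was 1253 to 6589 times that mean in Type 1 TAM depleted, 20.8 to 620 times in Type 1 Control, 3.53 to 28.6 times in Type 2 TAM depleted and 0.805 to 15.7 times in Type 2 Control libraries. In Type 2 the 4 high-background libraries held 17.9 to 39.3 normalized counts and the 4 low-background libraries 2.39 to 7.37, so the Type 2 level moved with the background, and the part of the background in it was not tested.

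**Figure D1:**
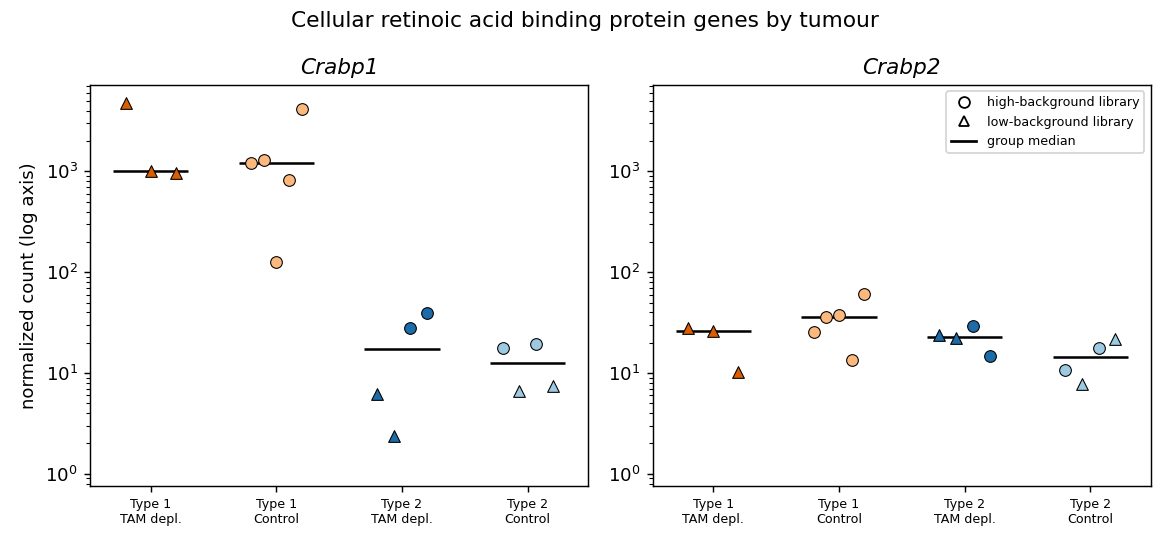
Normalized counts of Crabp1 (left) and Crabp2 (right) in each of 16 libraries, on a log axis, by group. Circles are high-background and triangles low-background libraries, and bars are group medians. All Type 1 libraries lie at or above 127 for Crabp1 and all Type 2 libraries at or below 39.3, while the groups overlap for Crabp2.

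Crabp2 (chr3:87948666-87953376, plus strand, 1322 exon bases), the second binding protein, did not show this split. It had 28.1, 26.0 and 10.3 normalized counts in Type 1 TAM depleted and 25.8, 35.9, 37.5, 13.6 and 61.4 in Type 1 Control libraries. It had 23.9, 22.1, 29.1 and 14.8 in Type 2 TAM depleted and 10.7, 7.79, 17.8 and 21.5 in Type 2 Control libraries. All 4 groups overlapped, and from means of log2(normalized count + 1) the ratio of Type 1 over Type 2 was 1.501. Crabp1 reads made up 77.3% to 99.4% of the Crabp1 and Crabp2 reads of a Type 1 library and 9.76% to 72.7% of those of a Type 2 library. The closest pair were Type 1 Control 3 at 77.3% (95% Wilson interval 69.4 to 83.6) and Type 2 TAM depleted 4 at 72.7% (55.8 to 84.9), whose intervals overlap. These intervals cover counting error only.

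Among the receptors, Rara (chr11:98927818-98974942, plus strand, 4365 exon bases), the broadly expressed retinoic acid receptor, was the gene with the highest level per length of the 9 in both Type 2 groups. Its normalized counts were 120, 243 and 85.9 in Type 1 TAM depleted and 113, 131, 170.0, 140.2 and 84.8 in Type 1 Control libraries. They were 304, 329, 128 and 157 in Type 2 TAM depleted and 164, 358, 390.0 and 535 in Type 2 Control libraries. From means of log2(normalized count + 1) Type 1 was 0.485 times Type 2, and the kinds overlapped over all libraries and within the high-background set. Within the low-background set the Type 1 libraries, 85.9 to 243, all lay below the Type 2 libraries, 304 to 535.

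Rarb (chr14:16430839-16819156, minus strand, 5265 exon bases) was the lowest of the 9 per length in both Type 1 groups. It had 11.2, 7.87 and 17.2 normalized counts in Type 1 TAM depleted and 23.8, 84.7, 36.2, 76.9 and 37.9 in Type 1 Control libraries, with no overlap. It had 31.3, 48.4, 25.9 and 144 in Type 2 TAM depleted and 46.5, 13.9, 83.7 and 72.0 in Type 2 Control libraries, which overlapped. In all 9 high-background libraries Rarb was below 3 times the receptor mean per kilobase (0.319 to 2.50), close to the background itself. The library kit does not mark strand, and 1793 of its exon bases are shared with Top2b, a topoisomerase gene on the opposite strand, so the counts of Rarb are uncertain. Top2b averaged 2639 ± 591 in Type 1 TAM depleted (SD, n = 3), 1428 ± 244 in Type 1 Control (n = 5), 2144 ± 887 in Type 2 TAM depleted and 1732 ± 1088 in Type 2 Control libraries (n = 4 each).

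Rxrg (chr1:167598384-167639623, plus strand, 2297 exon bases), a retinoid X receptor, varied widely within groups. It had 26.4, 6.05 and 61.3 normalized counts in Type 1 TAM depleted and 30.0, 102, 63.7, 57.3 and 28.9 in Type 1 Control libraries. It had 85.3, 93.9, 14.0 and 139 in Type 2 TAM depleted and 136, 12.2, 125 and 52.7 in Type 2 Control libraries. The 4 groups overlapped, and the highest library was 16.8 times the lowest in Type 1 and 11.4 times in Type 2.

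The genes of synthesis differed from each other. Aldh1a1 (chr19:20492715-20643465, plus strand, 4937 exon bases) had 108, 176 and 182 normalized counts in Type 1 TAM depleted and 253, 217, 139, 297 and 68.6 in Type 1 Control libraries. It had 122, 403, 244 and 190.1 in Type 2 TAM depleted and 172, 100.2, 87.3 and 143 in Type 2 Control libraries. The kinds were alike on means of log2(normalized count + 1), with a ratio of 1.01 for Type 1 over Type 2, and all groups overlapped.

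Aldh1a2 (chr9:71215789-71296243, plus strand, 2264 exon bases), the main retinoic acid synthase of the early embryo, had 15.2, 5.45 and 24.6 normalized counts in Type 1 TAM depleted and 30.0, 84.7, 57.5, 36.2 and 46.9 in Type 1 Control libraries. Each depleted library was below each Control library. In Type 2 the order of the group means was the other way, with 88.2, 87.3, 36.7 and 39.3 in TAM depleted and 60.8, 19.5, 51.6 and 32.3 in Control libraries, which overlapped. Aldh1a3 (chr7:66390890-66427517, minus strand, 4617 exon bases) had 74.1, 144 and 8.59 in Type 1 TAM depleted and 94.0, 96.2, 80.0, 92.0 and 66.8 in Type 1 Control libraries. It had 23.3, 29.3, 39.9 and 82.0 in Type 2 TAM depleted and 200.2, 42.3, 199 and 72.0 in Type 2 Control libraries. Its 5 Type 1 Control values lay close together, and each of its other groups spread over more than 3-fold.

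Cyp26b1 (chr6:84571414-84593908, minus strand, 5352 exon bases), the clearing enzyme, had 35.9, 40.5 and 82.5 normalized counts in Type 1 TAM depleted and 109, 78.9, 59.99, 27.1 and 70.4 in Type 1 Control libraries. It had 150.2, 234, 33.4 and 67.2 in Type 2 TAM depleted and 204, 184, 375 and 185 in Type 2 Control libraries. All 5 Type 1 Control libraries were below all 4 Type 2 Control libraries, while the depleted groups of the 2 kinds overlapped. Between Control groups, 2 of the 9 genes did not overlap. Crabp1 was higher in Type 1, as were 1.93% of 26463 tested genes without overlap, and Cyp26b1 was lower, as were 5.03%. Between the TAM depleted groups 3 of 9 did not overlap. Crabp1 was higher in Type 1, as were 5.77% of genes, and Aldh1a2 and Rarb were lower, as were 3.3%. Since the set was chosen on the difference between the kinds, nothing is read from these shares. In bulk tumour RNA, fewer cells of a type and less RNA per cell cannot be told apart.

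**Figure D2:**
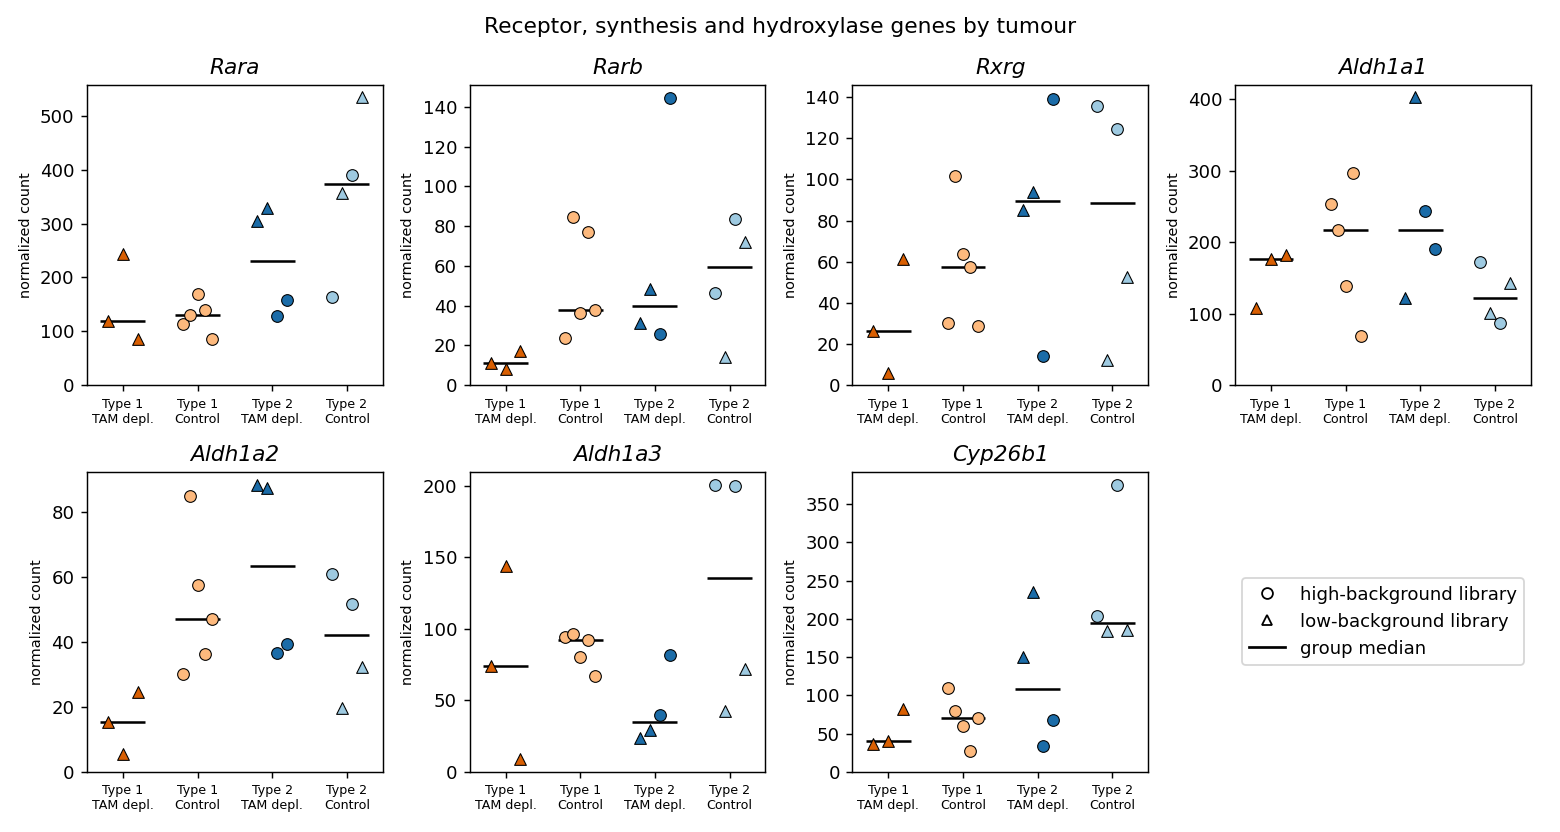
Normalized counts of the 7 receptor, synthesis and hydroxylase genes in each library by group, on linear axes that start at 0. Circles are high-background and triangles low-background libraries, and bars are group medians. Type 1 TAM depleted lies below Type 1 Control without overlap for Rarb and Aldh1a2, and the median of Cyp26b1 is highest in Type 2 Control, with 375 in 1 library.

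Measured per kilobase of exon, the order of the group medians began with Crabp1, Aldh1a1 and Rara and ended with Rarb in both Type 1 groups. The Crabp1 median was 1263 per kilobase in Type 1 TAM depleted and 1506 in Type 1 Control libraries, and the next gene, Aldh1a1, was at 35.7 and 43.9 in the same groups. In Type 2 TAM depleted libraries the order began with Rara and Aldh1a1 and ended with Aldh1a3. In Type 2 Control libraries it began with Rara and Rxrg and ended with Crabp2. Of the 8 pairs of neighbours in each order, 1 was apart over all libraries in each Type 1 group, Crabp1 above Aldh1a1, and 0 were apart in each Type 2 group.

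Against the receptor background of their own library, the genes other than Crabp1 were low in the high-background set. Of 9 such libraries, Cyp26b1 and Aldh1a3 were below 3 times the background in 8 each, Aldh1a2 and Crabp2 in 6 each, Rxrg in 5, and Rara and Aldh1a1 in 4 each. Crabp1 was below it in 1, Type 2 Control 1. In the low-background set the medians of these ratios ran from 10.4 for Rarb to 99.3 for Rara.

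**Figure D3:**
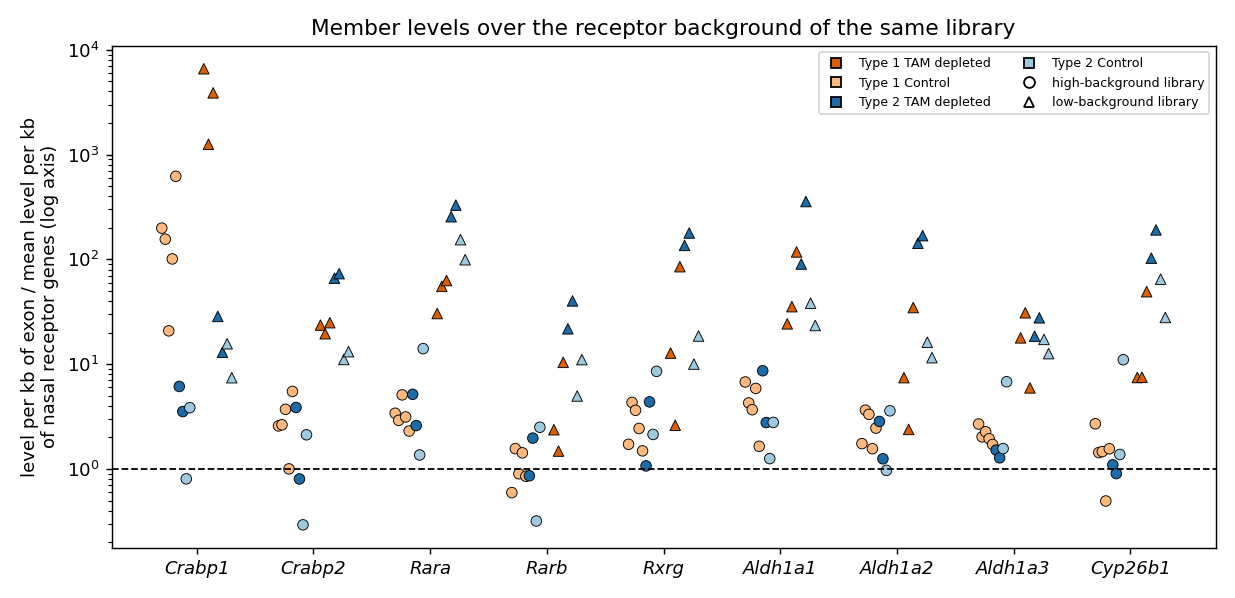
Level per kilobase of exon of each of the 9 genes divided by the mean level per kilobase of the nasal receptor genes in the same library, on a log axis; each point is 1 library, circles are high-background and triangles low-background, and the dashed line marks a ratio of 1. Crabp1 in Type 1 reaches 6589, while Rarb stays at or below 2.50 in every high-background library.

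Whether depletion of macrophages went with a change in these genes was not part of how they were chosen, and was tested with limma-trend on log2(normalized count + 1) over all genes, with Benjamini-Hochberg adjustment and a threshold of 0.05. In Type 1, 0 of the 9 genes passed, where 0% of 26463 genes passed. At an unadjusted p under 0.05 there were 2 of 9, Aldh1a2 and Rarb, and 8019 of all genes; limma-voom on the recovered reads likewise called 0 of 9 and 0 of all genes. The log2 fold change of TAM depleted over Control was -1.81 (SE 0.52, adjusted p = 0.103) for Aldh1a2 and -1.92 (SE 0.63, adjusted p = 0.103) for Rarb. These were also the 2 of 9 genes whose groups did not overlap, both lower in TAM depleted, where 28.6% of all genes did so in that direction. Set against the receptor background, Rarb was 1.48 to 10.4 times in Type 1 TAM depleted and 0.595 to 1.57 times in Type 1 Control libraries, and Aldh1a2 was 2.39 to 34.7 times in Type 1 TAM depleted and 1.56 to 3.64 times in Type 1 Control libraries. On that scale the depleted libraries reached higher than the Control libraries for all 9 genes. The receptor mean used as divisor was 0.313 to 1.01 per kilobase in Type 1 TAM depleted and 7.58 to 10.3 in Type 1 Control libraries. The ratios therefore carry the background split and cannot tell whether Aldh1a2 or Rarb changed. Some markers of other cell types lay apart in the same contrast. Of 9 fibroblast and meninges markers, 5 were lower in TAM depleted without overlap and 7 had negative fold changes (median log2 fold change -1.43), with summed levels of 1269 to 5416 in Type 1 TAM depleted and 1722 to 2595 in Type 1 Control libraries. Of 5 choroid plexus markers, 3 were lower without overlap and all 5 had negative fold changes (median -1.89), with sums of 62.9 to 116 in Type 1 TAM depleted and 263 to 553 in Type 1 Control libraries. In both lists 0 markers passed the test, where 0 of 26463 genes passed, and 28.6% of all genes were lower without overlap. Other lists went the other way. Fold changes were positive for 8 of 12 neuron, 7 of 8 astrocyte, 6 of 6 oligodendrocyte precursor and 5 of 6 neural stem cell markers. The background set coincides with the treatment here, so its part in these marker values cannot be told apart. The part of the markers in the values of Aldh1a2 and Rarb was not tested.

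Crabp1 averaged 2248 ± 2173 normalized counts in Type 1 TAM depleted (SD, n = 3) and 1529 ± 1560 in Type 1 Control libraries (SD, n = 5), a log2 fold change of 0.85 with an SE of 0.95 (adjusted p = 0.521). The other 6 genes had log2 fold changes between -1.17 for Rxrg and 0.13 for Rara, with adjusted p from 0.338 to 0.844. The median over the 9 genes was -0.64, and over all tested genes -0.06.

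In Type 2, 0 of the 9 genes passed, where 3.61% of 26463 genes passed. These were 956 genes, and the count depended on single libraries: it was 100 without Type 2 Control 3, 285 without Type 2 TAM depleted 2 and 302 without Type 2 TAM depleted 1, while 0 of the 9 passed without any of these. At an unadjusted p under 0.05 there was 1 of 9, Cyp26b1, and 4755 of all genes, and limma-voom called 0 of 9. Cyp26b1 averaged 121 ± 89.9 in Type 2 TAM depleted and 237 ± 92.4 in Type 2 Control libraries (SD, n = 4 each), and its log2 fold change was -1.25 with an SE of 0.54 (adjusted p = 0.226). Within the high-background libraries alone, 2 against 2, its fold change was -2.52 (adjusted p = 0.0497), and within the low-background libraries alone, also 2 against 2, it was 0.025 (adjusted p = 0.985). The log2 fold change was -1.42 for Aldh1a3 (SE 0.68, adjusted p = 0.289) and 0.85 for Aldh1a1 (SE 0.44, adjusted p = 0.332). Crabp1 averaged 19.0 ± 17.6 in Type 2 TAM depleted and 12.9 ± 6.80 in Type 2 Control libraries (log2 fold change 0.05, SE 0.92, adjusted p = 0.978). The median over the 9 genes was 0.12, and over all genes -0.21. None of the 9 had groups without overlap, where 7.25% of all genes had.

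The test of the difference between the 2 responses, Type 1 minus Type 2, likewise passed 0 of 9 genes, where 0% of all genes passed. At an unadjusted p under 0.05 there were 2 of 9, Aldh1a2 and Rarb, and 2666 of all genes, and limma-voom called 0 of 9. The difference for Aldh1a2, -2.42 on the log2 scale (SE 0.73, adjusted p = 0.461), was the furthest from 0. It combined a fold change of -1.81 in Type 1 with one of 0.61 in Type 2. The difference for Rarb was -2.05 (SE 0.88, adjusted p = 0.491) and that for Crabp1 was 0.80 (SE 1.32, adjusted p = 0.792).

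**Figure D4:**
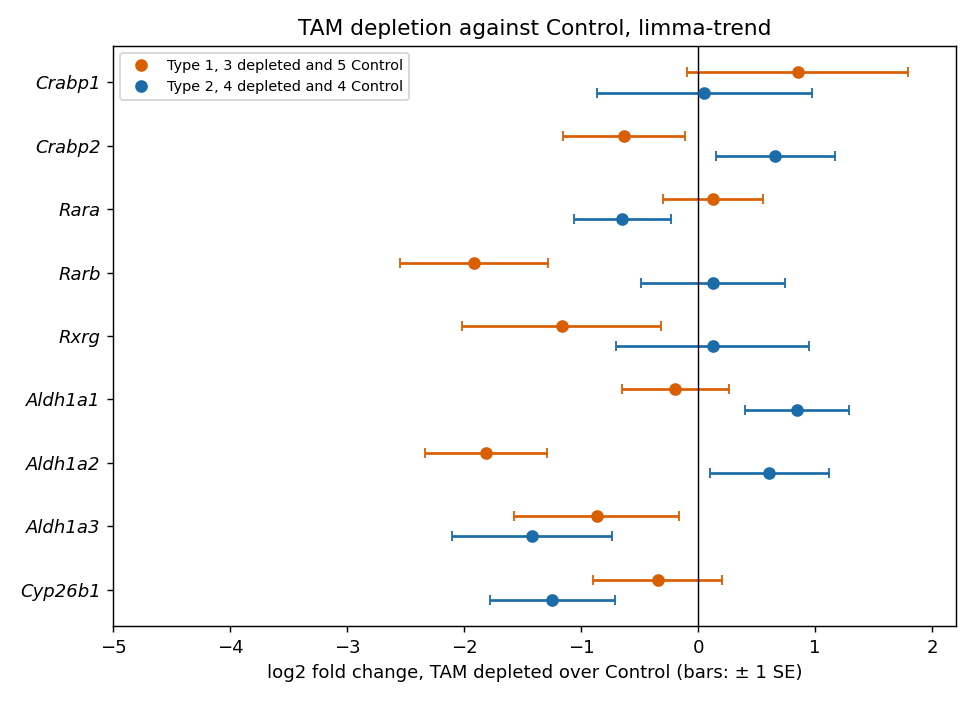
Log2 fold change of TAM depleted over Control for each of the 9 genes in Type 1 (upper point) and Type 2 (lower point), from limma-trend; bars are 1 SE on either side. No gene passed an adjusted p of 0.05, and the SE bars of Crabp1 cross 0 in both kinds.

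The rest of the pathway was described from a list of 45 further genes, of which 41 were measured and tested. Cyp26a1, the hydroxylase most often used as a readout of retinoic acid, was not among the genes of the table, nor were Rbp2, Rbp7 and Cdx1. In Type 1 depletion 0 of 41 passed by limma-trend or limma-voom, where 0 of 26463 genes passed. At an unadjusted p under 0.05 by limma-trend there were 11 of 41, and 8019 of all genes. In Type 2 depletion 1 of 41 passed, Rarg, which fell, where 1.24% of all genes fell. In Type 1 Control against Type 2 Control, 3 of 41 were lower in Type 1 (Rarg, Tgm2 and Dhrs3), where 2.28% of all genes were, and 0 were higher, where 0.816% were. Over all genes that is 216 higher and 603 lower in Type 1 Control, a split that turned with the method. Limma-voom called 1441 higher and 902 lower, the fit with the background set as a block 744 and 482, and the high-background libraries alone 658 and 399. In Type 1 TAM depleted against Type 2 TAM depleted, where 0.185% of all genes passed, 0 of 41 passed by limma-trend or limma-voom. At an unadjusted p under 0.05 by limma-trend there were 5 of 41, and 3206 of all genes. Median log2 fold changes over the 41 genes were -0.13 in Type 1 depletion, -0.24 in Type 2 depletion, 0.26 between the Control groups and -0.21 between the TAM depleted groups. Over all genes they were -0.06, -0.21, 0.23 and -0.11 in the same order.

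Rarg, the third retinoic acid receptor, is known for its place in skin and skeletal tissue. It had 109, 264, 71.2 and 113 normalized counts in Type 2 TAM depleted and 307, 464, 1028 and 608 in Type 2 Control libraries, without overlap (log2 fold change -2.14, SE 0.41, adjusted p = 0.0154). Without Type 2 Control 3, the highest library, its fold change was -1.83 and the adjusted p was 0.0605, and in the low-background libraries alone it was -1.64 with an adjusted p of 0.302. In Type 1 it had 69.1, 41.2 and 91.1 in TAM depleted and 108, 73.2, 125, 90.5 and 81.2 in Control libraries, which overlapped (adjusted p = 0.365). The difference between the responses was 1.59 (SE 0.59, adjusted p = 0.472). Type 1 Control was below Type 2 Control with a log2 fold change of -2.53 and an SE of 0.39 (adjusted p = 0.00144).

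Tgm2, a transglutaminase and retinoic acid target, had 86.8, 74.6, 91.2, 76.9 and 146 normalized counts in Type 1 Control and 147, 592, 475 and 348 in Type 2 Control libraries (log2 fold change -1.90, SE 0.46, adjusted p = 0.0293). The highest Type 1 Control library and the lowest Type 2 Control library were nearly equal. Dhrs3, a retinal reductase that lowers the supply of retinal for retinoic acid synthesis and is itself a retinoic acid target, had 58.9, 63.2, 94.98, 72.4 and 61.4 in Type 1 Control and 114, 183, 235 and 209 in Type 2 Control libraries (log2 fold change -1.36, SE 0.33, adjusted p = 0.0308). In Type 2 TAM depleted libraries Dhrs3 had 55.7, 138, 56.1 and 99.98, which over Type 2 Control is -1.13 on the log2 scale (SE 0.35, adjusted p = 0.0814). The Control calls of Tgm2 and Dhrs3 were close to the threshold. That of Tgm2 was lost without any 1 of Type 1 Control 1, 2, 3 and 4 and Type 2 Control 2, 3 and 4 (adjusted p from 0.0557 to 0.104), and that of Dhrs3 without any 1 of Type 1 Control 1, 2, 4 and 5 and Type 2 Control 2, 3 and 4 (adjusted p from 0.0665 to 0.108). With the background set as a block the adjusted p was 0.0785 for Tgm2 and 0.0694 for Dhrs3, and in the high-background libraries alone it was 0.0818 for Tgm2 and 0.118 for Dhrs3, so neither call held there.

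Markers of several cell types also differed in these contrasts, in both directions. The summed level of 9 fibroblast and meninges markers was 1269 to 5416 in Type 1 TAM depleted, 1722 to 2595 in Type 1 Control, 1349 to 7786 in Type 2 TAM depleted and 6470 to 44599 in Type 2 Control libraries. Of the 9, 2 were lower in Type 1 Control than in Type 2 Control, where 2.28% of all genes were. In Type 2 depletion 0 of the 9 passed, and all 9 had negative fold changes. The summed level of 12 neuron markers was 23948 to 95505 in Type 2 TAM depleted and 3253 to 15074 in Type 2 Control libraries. Of the 12, 7 were higher in TAM depleted, where 627 of 26463 genes were. The 15 macrophage and microglia markers all had negative fold changes in Type 2, 4 of them past the threshold, where 1.24% of all genes were lower. The Type 2 calls over all genes numbered 100 without Type 2 Control 3, and these markers were not examined without it. Between the Control groups, 2.28% of all genes were lower and 0.816% higher in Type 1. Of 6 oligodendrocyte precursor markers 4 were lower, with sums of 609.9 to 3365 in Type 1 Control and 5355 to 30380.7 in Type 2 Control libraries. Of 8 mature oligodendrocyte markers 2 were lower, with sums of 1056 to 6752 in Type 1 Control and 3393 to 16894 in Type 2 Control libraries. Of the 12 neuron markers 3 were higher, with sums of 13163 to 31859.7 in Type 1 Control libraries. Likewise 1 of 8 astrocyte and 1 of 6 neural stem cell markers were lower. Of the macrophage and microglia markers 0 passed between the Control groups, and all 15 had negative fold changes there, with sums of 1913 to 3692 in Type 1 Control and 3841 to 10109.7 in Type 2 Control libraries. None of these markers was at 0 in any library, and their part in the results for Rarg, Tgm2 and Dhrs3 was not tested.

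Stra6 is the cell-surface receptor that takes up retinol from its plasma carrier. Its Control groups did not overlap, with Type 1 higher, which held for 1 of the 41 listed genes and for 1.93% of all genes. It had 327, 138, 156, 152 and 534 normalized counts in Type 1 Control and 57.2, 136, 95.3 and 80.5 in Type 2 Control libraries, which did not pass (log2 fold change 1.35, SE 0.53, adjusted p = 0.230). The lowest Type 1 Control and the highest Type 2 Control library were nearly equal. In the TAM depleted groups it had 320, 406 and 63.0 in Type 1 and 50.6, 90.3, 125 and 52.4 in Type 2 libraries (log2 fold change 1.43, SE 0.60, adjusted p = 0.356). Rdh10, which oxidises retinol to retinal, averaged 118 ± 27.0 in Type 1 TAM depleted, 98.4 ± 19.8 in Type 1 Control, 114 ± 27.9 in Type 2 TAM depleted and 77.4 ± 13.9 in Type 2 Control libraries (SD). The partner receptors Rxra and Rxrb averaged 231 ± 82.1 and 333 ± 15.4 in Type 1 TAM depleted, 192 ± 35.5 and 248 ± 52.1 in Type 1 Control, 342 ± 112 and 298 ± 85.0 in Type 2 TAM depleted, and 350 ± 81.5 and 267 ± 89.7 in Type 2 Control libraries (SD). None of Rdh10, Rxra and Rxrb passed in any of the 4 contrasts.

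The genes whose levels ran most like that of Crabp1 were ranked by Pearson correlation of log2(normalized count + 1). Over 16 libraries, among 12711 genes with a mean normalized count of 50 or more, they were Nhlh1 (r = 0.973), Igfbpl1 (0.964), Mycn (0.960), Ddx1 (0.959) and Nbas (0.955), with Spearman rho from 0.835 to 0.932. Leaving out Type 1 TAM depleted 1 and Type 1 Control 5, which lay farthest from the median, gave r from 0.939 to 0.972. The 2 tumour kinds stand apart in all of these genes, so the measure ranks genes largely by that gap. Within the 8 Type 2 libraries r was 0.927 for Nhlh1 and 0.060 for Nbas, and within the 8 Type 1 libraries it was between 0.848 and 0.951 for the 5 genes. The libraries share depth and background set with the quantity ranked, and no p is given.

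Nhlh1 encodes a helix-loop-helix factor of young neurons. It averaged 849 ± 445 normalized counts in Type 1 TAM depleted, 946 ± 810 in Type 1 Control, 20.6 ± 24.6 in Type 2 TAM depleted and 19.1 ± 15.0 in Type 2 Control libraries (SD). Mycn, a MYC family transcription factor, averaged 30907.6 ± 11680.4 in Type 1 TAM depleted, 24299 ± 15119.5 in Type 1 Control, 194 ± 181 in Type 2 TAM depleted and 51.7 ± 13.7 in Type 2 Control libraries. Mycn (chr12:12936093-12941914), Ddx1 (chr12:13216973-13249213), an RNA helicase, and Nbas (chr12:13269133-13583811), a factor in vesicle transport, lie beside one another on chromosome 12. Ddx1 reached 301842 ± 149802 in Type 1 TAM depleted and 157775 ± 107097 in Type 1 Control, against 1520 ± 911 in Type 2 TAM depleted and 816 ± 343 in Type 2 Control libraries.

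Within the 8 Type 1 libraries alone, among 12457 genes, the closest were Crcp (r = 0.975), Insm1 (0.967), Larp1b (0.967), H3c8 (0.956) and H3c6 (0.953). Without Type 1 Control 3 and Type 1 TAM depleted 1, the libraries farthest from the median, r lay between 0.876 and 0.924. Insm1, a zinc finger factor of neuronal and endocrine progenitors, averaged 1587 ± 496 in Type 1 TAM depleted, 1293 ± 812 in Type 1 Control, 219 ± 332 in Type 2 TAM depleted and 29.0 ± 26.4 in Type 2 Control libraries. H3c6 and H3c8 are histone genes with near-identical copies, whose reads could be split between them.

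**Figure D5:**
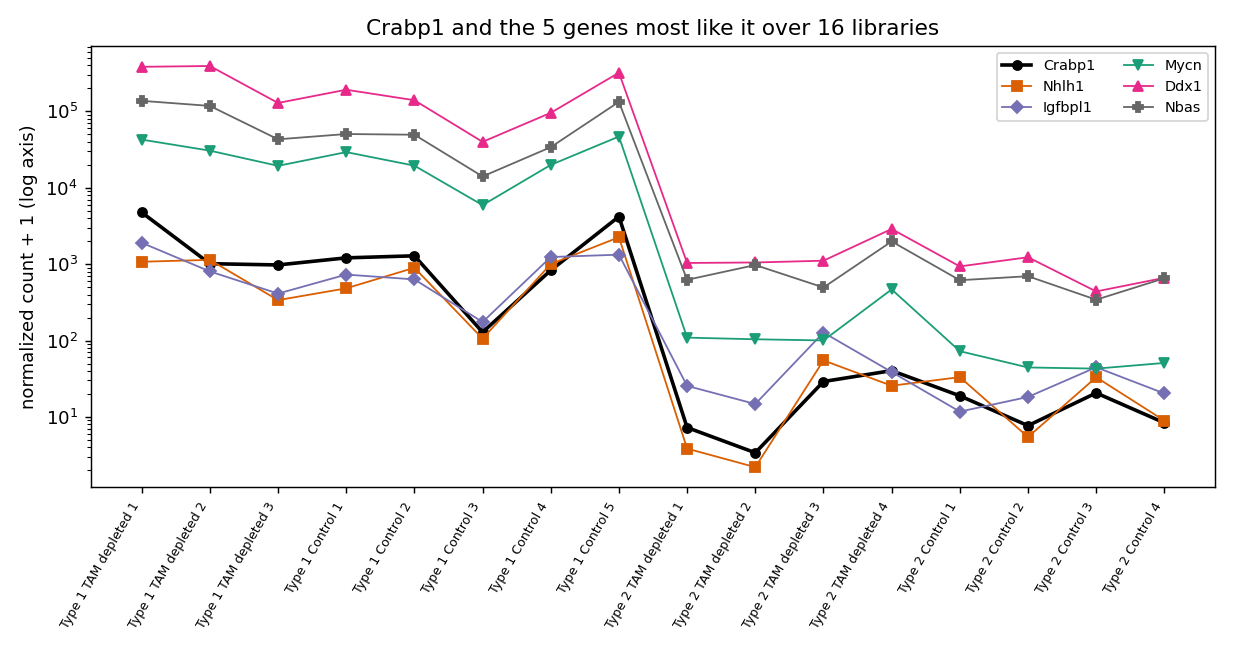
Normalized count plus 1 of Crabp1 and the 5 genes most like it in each of 16 libraries, on a log axis; lines join libraries for reading only. All 6 genes are higher in the 8 Type 1 libraries at the left than in the 8 Type 2 libraries at the right, and Type 1 Control 3 is the lowest Type 1 library for each.

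Among the 9 genes themselves, the strongest positive correlations of log2(normalized count + 1) over 16 libraries were between Rarb and Rxrg (r = 0.786, rho = 0.771) and between Rxrg and Aldh1a2 (r = 0.777, rho = 0.729). In the 7 low-background libraries, where the receptor background weighs least, Rxrg and Aldh1a2 had r = 0.899 (rho = 0.893). Crabp1 ran opposite to Cyp26b1 there (r = -0.957, rho = -0.857), a description of 3 Type 1 and 4 Type 2 libraries that also differ by kind.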

How the data were processed

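RNA was taken up in TRIzol, purified with miRNeasy Micro columns and made into bulk RNA-seq libraries with SMART-Seq v4 reagents, per the labels' protocols. The submitters' processing notes name STAR 2.7.8a, GRCm38 and DESeq2. The sources used here give neither counting tool, annotation nor the filter on low genes. The authors deposited 3 tables on a log2 scale, for all 16 libraries (26466 genes) and for each tumour kind. The values proved to be variance-stabilized, with 1 lowest value shared by all columns of a table, and were inverted to normalized counts. Within a library every inverted value was a whole number of steps of 1 size (100% within 0.05 reads), and this step gave the reads.

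The members and all gene lists were chosen with earlier results of these data known. The 26463 genes that reached 10 normalized counts in 3 libraries were tested with limma-trend (limma 3.58.1, R 4.3.3) on log2(normalized count + 1). A single fit of 4 group means over 16 libraries had 12 residual degrees of freedom. P-values were 2-sided and Benjamini-Hochberg adjusted over all genes. All per-sample columns were used. Within groups, libraries differed by more than sampling noise (chi-square per degree of freedom 9.43 or above). The fit was also run on simulated counts with a shared dispersion for all genes and no background split. That run cannot show how the fit behaves with these libraries.

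Genes named beside the 9 were the pathway genes past the threshold (at most 6 per direction), Cyp26a1, Rarg, Rxra, Rxrb, Rdh10, Dhrs3 and Stra6, and the 5 genes most like Crabp1 over all and over Type 1 libraries, leaving out predicted models. A further gene that the rule names is not reported here. Coordinates and exon lengths are from GENCODE (GRCm38, 1-based). The background sets were parted at 2000 receptor reads per M reads, and the mean receptor level per kilobase was used since the median was 0 in 1 library, a choice made after seeing the data. Alternatives were pseudocounts of 0.5 and 8, other filters, scalings, the deposited log2 values, limma-voom, blocks, the background sets apart, and leaving out each library.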

Additional observations from a re-analysis of the deposited data

Results flagged for a closer look

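Of 27 groups of 4 or 5 libraries examined on normalized counts without logs, 2 held a library far from the others. Chance alone gives about 1 in 20 for normally spread values, which such counts need not be. The log2 scale was not examined in this way. Crabp1 was at 4197 normalized counts in Type 1 Control 5, against 127 to 1285 in the other Type 1 Control libraries. Cyp26b1 was at 375 in Type 2 Control 3, against 184 to 204 in the other Type 2 Control libraries.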

How the results depend on the processing

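Of the 9 genes, 0 passed in any depletion test under any alternative except Cyp26b1 in the high-background Type 2 libraries alone (1 gene); leaving out each library in turn gave 0 throughout. Aldh1a2 and Rarb in Type 1 reached adjusted p values no lower than 0.0599 under any alternative. Of the other 41 pathway genes, the number called in Type 2 depletion was 3 with upper quartile scaling, 2 with limma-voom, 3 with the background set as a block and 0 in the low-background libraries alone, and 0 to 2 without 1 library. Between the Control groups it was 1 with the background set as a block (Rarg), 2 in the high-background libraries alone (Rarg lower and Fabp5, named after its value was seen, higher) and 1 to 3 without 1 library, and between the TAM depleted groups 0 to 1 without 1 library. Rarg was lower in Type 1 Control, past the threshold, under all 27 alternatives. It fell past the threshold in Type 2 depletion under 26 of 28.

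Signs of log2 fold changes that did not pass turned as follows, and the cause was not tested. With upper quartile scaling, Rara was -0.27 in Type 1, and Crabp1 -0.12, Rarb -0.082 and Rxrg -0.089 in Type 2. That scaling moved the median of all genes to -0.44 in Type 1 and -0.41 in Type 2. With quantile normalization, Crabp2 was 0.57, Rara -0.026 and Cyp26b1 0.15 in Type 1, Rxrg was -0.21 in Type 2, and the difference for Crabp1 was -0.59. With the background block, Rara was -0.84 and Aldh1a3 0.60 in Type 1, and the difference for Rara was -0.19. Limma-voom gave -0.37 for Crabp1 in Type 2. Low-background libraries alone gave -0.69 for Crabp1 and 0.025 for Cyp26b1 in Type 2. High-background libraries alone gave -0.021 for Rarb, -1.51 for Rxrg and -0.55 for Aldh1a2 in Type 2. Without 1 library, Type 1 values ran from -0.29 to 0.45 for Rara, -0.52 to 0.048 for Aldh1a1 and -1.68 to 0.28 for Aldh1a3. Type 2 values ran from -0.49 to 0.70 for Crabp1, -0.41 to 0.43 for Rarb and -0.60 to 0.82 for Rxrg, and the difference for Aldh1a3 from -0.26 to 1.70.

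Replicate numbers are shared between groups, and no label says that same-numbered libraries are paired. Correlations of their deviations from the group means ran from -0.67 to 0.50. In Type 2 these were negative for numbers 1 and 4, whose libraries lie in different background sets. They were positive for numbers 2 and 3, whose libraries share a set. The correlations therefore cannot decide whether the libraries were paired. With a replicate block, 0 of all genes passed in Type 1, 297 in Type 2 (956 without it) and 1 for the difference (0), 347 between the Control groups (819) and 16 between the TAM depleted groups (49), and 0 of the 9 passed. The call of Dhrs3 between the Control groups was lost under it (adjusted p = 0.106). Over all genes, the Type 2 calls numbered 2635 with the background set as a block, 573 in its high and 0 in its low libraries alone. The calls between the Control groups numbered 2343 with limma-voom, 1805 with quantile normalization and 1226 with the background block, and those between the TAM depleted groups 215 with the background block, 31 with quantile normalization and 24 in the low-background libraries alone. With the background block, 166 genes passed for the difference. Leaving out 1 library gave 100 to 1259 Type 2 calls, with 605 without Type 2 Control 1, 629 without Type 1 Control 2 and 635 without Type 1 Control 4, and 0 to 2 Type 1 calls. It gave 510 (without Type 1 Control 4) to 1141 calls between the Control groups, with 524 without Type 2 Control 3. It gave 12 calls between the TAM depleted groups without Type 1 TAM depleted 1, 15 without Type 1 TAM depleted 2, 77 without Type 2 Control 1 and 234 without Type 1 TAM depleted 3. Other scalings moved the split of the calls. Of the Type 2 calls 627 were higher and 329 lower, against 673 and 618 with upper quartile scaling. Between the Control groups 216 were higher and 603 lower, against 445 and 626 with upper quartile scaling and 725 and 1080 with quantile normalization. The receptor background limits the levels of the low genes in 9 libraries.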
